A study of Homo sapiens with 30 samples.

Results

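The transcriptome after siANKRD10-2 was compared with that after siNC in 5637, an established line of human bladder carcinoma cells. The members were chosen by library label alone, as the 3 libraries labelled siANKRD10-2 and the 3 labelled siNC, which makes 6 of the 30 samples of the series, and all genes of the count table were considered. siANKRD10-2 is a small interfering RNA (siRNA) against the ANKRD10-2 isoform of ANKRD10, and siNC is the negative control siRNA. The labels give both groups the same cell line, the same transfection reagent and no genotype other than the siRNA, while the study's text places siANKRD10-2 in 5637 cells with RBPMS knocked out, so the background of these libraries was not settled from the labels. All 6 libraries came from 1 line, nothing in the labels tells separate cultures from repeated libraries, and p-values therefore measure the spread between these libraries. The series also holds siANKRD10-1 libraries in the same table, and ANKRD10-2 overexpression with its own Vector libraries in another table. Poly(A) RNA was sequenced and the authors deposited reads per gene.

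ANKRD10 encodes a protein with ankyrin repeats, and the study addresses its ANKRD10-2 isoform in relation to MYC. MYC is a transcription factor that pairs with MAX, binds the E-box CACGTG, and is known for activating genes of ribosome production, nucleotide synthesis and glycolysis. Proteins of the MXD family compete with MYC for MAX. An siRNA guides cleavage of a matching mRNA in the cytoplasm, so it can lower an isoform only through sequence that the isoform carries.

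Total counts ranged from 32329422 to 32784584 in siNC and from 28511029 to 32141257 in siANKRD10-2. Of 56303 rows in the table, 18924 passed a filter on low counts and were tested with edgeR's quasi-likelihood test, adjusted by Benjamini and Hochberg over all of them. Levels are given as normalized counts, which are counts scaled to the mean library size by TMM (a trimmed mean of ratios). A gene was called at an adjusted p under 0.05. Defining markers of the epithelial line were present (summed CPM of 6776 to 6905 in siNC and 4154 to 4302 in siANKRD10-2), while CD3D, CD3E, MS4A1 and LYZ, markers of immune cells, were at 0 in all 6 libraries and PTPRC reached at most 2 counts. Reads from the mitochondrial chromosome made up 12% to 13.8% of siNC libraries and 8.92% to 10.5% of siANKRD10-2 libraries. The part of this difference in the results was not tested, but without mitochondrial rows 3301 genes were higher and 3582 lower.

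After siANKRD10-2, 6874 genes were called, 36.3% of those tested. Of these, 3332 were higher (17.6%) and 3542 were lower (18.7%), and the median log2 fold change over all genes tested was 0.00. Most differences were small. A log2 fold change of at least 1 was passed by 293 of the higher genes (1.55% of genes tested) and 207 of the lower genes (1.09%). The libraries of the groups did not overlap for 46.5% of the genes tested. In groups of this size the smallest p of an exact two-sided permutation test is 0.1, so each call rests on the spread modelled across all genes.

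ANKRD10, the targeted gene, lies at chr13:110878540-110915069 (GRCh38), and its row sums the reads of all its transcripts, so it cannot show how each isoform changed. It was 1780.5, 1682 and 1828 in siNC and 1453, 1496 and 1499.9 in siANKRD10-2. The siANKRD10-2 libraries were all below the siNC libraries (log2 fold change −0.25, SE 0.06, adjusted p = 0.00122 from edgeR). No difference between siANKRD10-1 and siANKRD10-2 was called in this row (log2 difference 0.00, SE 0.06, adjusted p = 0.985 from edgeR). RBPMS, the RNA-binding protein that the study places upstream of ANKRD10 splicing, was 183, 144 and 141 in siNC and 162, 161 and 157 in siANKRD10-2. The ranges overlapped (log2 fold change 0.03, SE 0.14, adjusted p = 0.894 from edgeR).

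MYC and MAX both fell after siANKRD10-2. MYC was 1459, 1409 and 1513 in siNC and 1010, 979 and 906 in siANKRD10-2 (log2 fold change −0.60, SE 0.06, adjusted p = 3.72e-08 from edgeR). The groups were well apart, and MYC was also lower than after siANKRD10-1 (log2 difference −0.68, SE 0.07, adjusted p = 5.22e-08 from edgeR). MAX, the partner that MYC needs to bind DNA, was 2270.1, 2368 and 2604 in siNC and 1788, 1736 and 1807 in siANKRD10-2 (log2 fold change −0.44, SE 0.06, adjusted p = 1.5e-06 from edgeR). Among the 12 tested genes of the MYC network, 5 fell (MYC, MAX, MXD1, MXD3 and MLXIPL), 2 rose (MLX and MXD4) and 5 were not called, with a median of −0.11. The falls were 41.7% and the rises 16.7% of this network, against 18.7% and 17.6% of all genes tested. MXD3 shares exon bases with RAB24 and PRELID1, so its reads may be split between rows. Against siANKRD10-1, 5 of the network genes were lower and 2 higher, where 18.8% of all genes tested were lower and 18.2% higher.

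A qRT-PCR panel of 7 MYC targets had 6 genes that fell after siANKRD10-2, against 18.7% of all genes tested. The panel was chosen by the study on its own cells, so its direction is not independent evidence. Those with the largest falls were both enzymes of glycolysis. HK2, which phosphorylates glucose in its opening step, was 1154, 1083 and 1090.5 in siNC and 523, 516 and 475 in siANKRD10-2 (log2 fold change −1.14, SE 0.07, adjusted p = 3.53e-12 from edgeR). PGK1, which makes ATP in the same pathway, was 8617, 8679.8 and 8942 in siNC and 4782, 4662 and 4433 in siANKRD10-2 (log2 fold change −0.92, SE 0.05, adjusted p = 7.47e-13 from edgeR). No library of either gene reached the range of the other group. C1QBP, a mitochondrial matrix protein, had a log2 fold change of −0.54, DDX21, a nucleolar RNA helicase, of −0.47, PRMT3, a methyltransferase of ribosomal protein S2, of −0.31, and RSL1D1, a nucleolar protein, of −0.21. PRMT3 was the least steady of the 6, since its 3 siANKRD10-2 libraries spread from 438 to 545 and its adjusted p rose to 0.0582 without siANKRD10-2 replicate 1. WDR43, a factor of small ribosomal subunit assembly, was 6024, 5832 and 5979 in siNC and 5593, 5782 and 5683 in siANKRD10-2. Its libraries did not overlap, yet it was not called (log2 fold change −0.06, SE 0.05, adjusted p = 0.355 from edgeR).

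**Figure D1:**
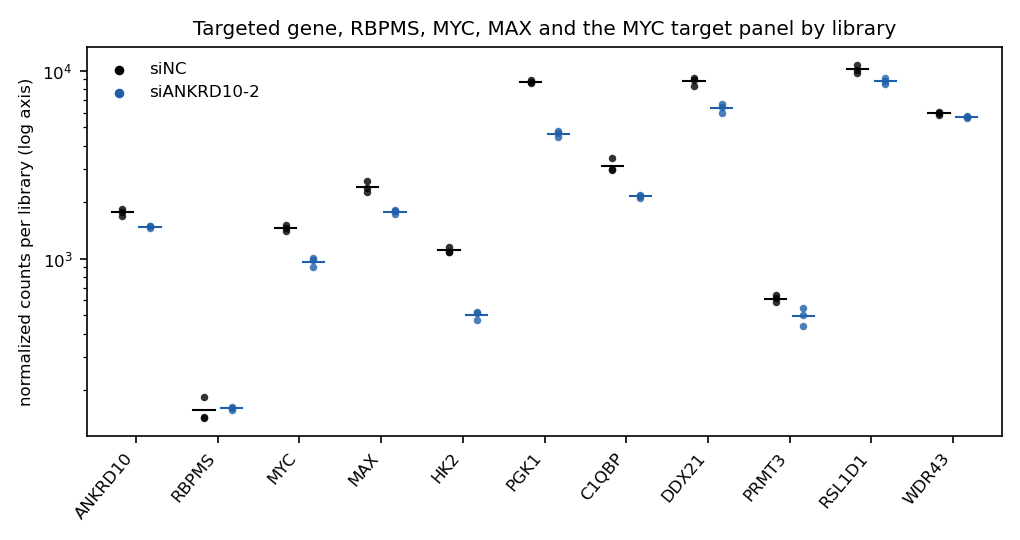
Normalized counts on a log axis for ANKRD10, RBPMS, MYC, MAX and the 7 MYC targets of the panel, with 1 point per library, black for siNC and blue for siANKRD10-2, and a bar at each mean of 3. The blue points lie below the black points for all genes shown but RBPMS, whose ranges overlap, with the widest gaps at HK2 and PGK1.

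The direct test between the knockdowns was also run for this panel. Of the genes tested in siANKRD10-2 against siANKRD10-1, 18.2% were higher and 18.8% lower, and this comparison shares the siANKRD10-2 libraries with the comparison above. All later counts against siANKRD10-1 are to be read against these shares. In it, 6 of the 7 panel genes were lower, with a log2 fold change of −1.02 for HK2 and −1.05 for PGK1. WDR43 stood at 0.11 and was not called (adjusted p = 0.128 from edgeR). In ANKRD10-2 overexpression against Vector, which shares no library with the knockdown, 10.7% of genes tested were higher and 9.25% lower. There MYC rose by 0.55 on the log2 scale (SE 0.06, adjusted p = 2.16e-05 from edgeR), and 5 of the 7 panel genes rose, at 0.46 for C1QBP, 0.33 for DDX21, 0.46 for RSL1D1, 0.33 for WDR43 and 0.14 for PGK1. PGK1 lost its call there when libraries were scaled by total counts only (adjusted p = 0.312 from edgeR). HK2, the panel gene with the largest fall in the knockdown, was at 0.11 with overexpression (adjusted p = 0.111 from edgeR).

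The wider list of 96 tested MYC-bound growth genes moved less evenly, with 36 lower, 16 higher and 44 not called, and a median of −0.08. The falls were 37.5% of the list, against 18.7% of all genes tested. LDHA, which reduces pyruvate to lactate, was 24913, 25097 and 28204 in siNC and 13436, 14371 and 14811 in siANKRD10-2 (log2 fold change −0.88, SE 0.06, adjusted p = 8.27e-12 from edgeR). PHB, a scaffold protein of the inner mitochondrial membrane, was at −0.82, and PAICS, an enzyme of purine synthesis, at −0.61. The rises were 16.7% of the list, near the 17.6% of all genes tested. CDC45, a part of the replicative helicase, was 2466, 2628 and 2756 in siNC and 3516, 3595 and 3784 in siANKRD10-2 (log2 fold change 0.47, SE 0.06, adjusted p = 2.52e-07 from edgeR), TRIP13, an ATPase of the mitotic checkpoint, was at 0.50, and CDK4, the kinase partner of cyclin D, at 0.35. CDK4 shares exon bases with TSPAN31 on the opposite strand. With ANKRD10-2 overexpression 44 of the 96 were higher and 2 lower.

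CACGTG was searched in promoter windows of RefSeq on GRCh38.p14, each reaching from 250 bases before to 50 bases after a gene's start. The motif is its own reverse complement, so a match counts for both strands. Windows were found for 10845 of the 13184 protein coding genes tested (82.3%). They held the motif for 10.2% of the genes that rose, 10% of those that fell and 9.85% of those not called, against 7.43% of all 27305 windows of that length, so the shares of called and uncalled genes lay close together. Of the MYC-bound growth genes 32.5% held it. The matches in the panel and in the named members of that list are shown because they place the motif in genes that fell (PRMT3, LDHA), rose (CDK4) or were not called (WDR43), with CACGTG in capitals between 10 flanking bases, 5′ to 3′ on the gene's strand. The PRMT3 site is chr11:20387519-20387544 (plus strand), 187 bases upstream of the start, the WDR43 site chr2:28894660-28894685 (plus strand), 3 bases downstream, the LDHA sites chr11:18394368-18394393 and chr11:18394466-18394491 (plus strand), 185 and 87 bases upstream, and the CDK4 sites chr12:57752511-57752536, chr12:57752491-57752516 and chr12:57752396-57752421 (minus strand), 216, 196 and 101 bases upstream.
PRMT3: gcccccacctCACGTGacccgcacgg
LDHA site 1: actcccagcgCACGTGgagcagtctg
LDHA site 2: gcccgactcaCACGTGggttcccgca
CDK4 site 1: gtcaagcggtCACGTGtgatagcaac
CDK4 site 2: agcaacagatCACGTGgctgccatcg
CDK4 site 3: gggtggcggtCACGTGcccagaacgt
WDR43: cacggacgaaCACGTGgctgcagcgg
The windows of HK2, PGK1, C1QBP and DDX21 in the panel, and of PHB, PAICS, TRIP13 and CDC45, held no CACGTG, which says only that these letters were not within those bases. No window was found for RSL1D1 of the panel or for TCOF1, another called member of the growth list.

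Cytosolic ribosomal proteins, the subunits of the ribosome that translates nuclear mRNAs, had the largest share of falls of any list with over 20 tested genes, 77.2% against 18.7% of all genes tested. Of 79 tested, 61 fell, none rose and 18 were not called, with a median log2 fold change of −0.38 against 0.00 over all genes. Their summed share of the reads was 3.20% to 3.48% in siNC and 2.68% to 2.80% in siANKRD10-2. RPS25 was 5124, 5322 and 5769 in siNC and 2730.3, 3073 and 2541 in siANKRD10-2 (log2 fold change −0.96, SE 0.06, adjusted p = 9.59e-12 from edgeR), although its exons overlap TRAPPC4 on the opposite strand. RPS27A, which is made as a fusion with ubiquitin, was 7606, 7768 and 8489 in siNC and 4519, 4653 and 4305 in siANKRD10-2 (log2 fold change −0.82, SE 0.06, adjusted p = 1.3e-11 from edgeR). In both genes the lowest siNC library was well above the highest siANKRD10-2 library. RPL36 and RPL30 fell by 0.79 each, while RPS14 and RPSA stood at 0.00 and 0.01 and were not called. Against siANKRD10-1, 72 of the 79 were lower and none higher, and with ANKRD10-2 overexpression 64 were higher and none lower, or 42 higher when the overexpression libraries were scaled by total counts only. Many ribosomal proteins have processed pseudogenes with near-identical sequence, so the counts of single members are uncertain.

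Hypoxia genes mostly fell too. Of 30 tested, 20 fell (66.7% against 18.7% of all genes tested), 1 rose (PFKFB3) and 9 were not called, with a median of −0.40. NDRG1, a gene of the hypoxia response, was 4539, 4753 and 4928 in siNC and 2544, 2490.1 and 2512 in siANKRD10-2 (log2 fold change −0.91, SE 0.05, adjusted p = 1.25e-12 from edgeR). DDIT4, an inhibitor of mTOR complex 1, was 9462, 9974 and 10577 in siNC and 5347, 5371 and 5254 in siANKRD10-2 (log2 fold change −0.91, SE 0.05, adjusted p = 1.3e-12 from edgeR). The libraries of a group differed from each other by far less than the groups did, although DDIT4 shares 41.2% of its exon bases with an opposite-strand gene. FAM162A and BNIP3, both mitochondrial proteins, were at −0.94 and −0.81. HIF1A and EPAS1, which encode oxygen-regulated subunits of the hypoxia-inducible factors, fell by 0.44 and 0.36, and the prolyl hydroxylases that modify them, EGLN1 and EGLN3, by 0.61 and 1.09. VEGFA, the angiogenic growth factor, was not called at −0.05. Against siANKRD10-1, 20 of the 30 were lower and 1 higher, and with ANKRD10-2 overexpression 10 of 31 tested were higher and none lower, which became 5 higher and 3 lower when those libraries were scaled by total counts only.

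The glycolysis list overlaps the hypoxia and MYC lists, and 10 of its 23 tested members fell and 3 rose. These were 43.5% and 13% of the list, against 18.7% and 17.6% of all genes tested. The falls were HK2, PGK1, LDHA, SLC2A1, ALDOA, GPI, TPI1, SLC16A3, PKM and PGAM1, and the rises were PFKFB3, ENO2 and PFKM. SLC2A1, the basal glucose transporter, was 2992, 2872 and 2643 in siNC and 1819.8, 1836 and 1601 in siANKRD10-2 (log2 fold change −0.70, SE 0.06, adjusted p = 2.36e-09 from edgeR). ENO1, HK1 and GAPDH were not called, at 0.01, 0.01 and −0.12, so its members moved unevenly.

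Keratins of the urothelial and squamous epithelium were the list with the largest median fall among those with over 20 tested genes. Of 27 tested, 16 fell (59.3% against 18.7% of all genes tested), none rose and 11 were not called, with a median of −0.66. KRT5, the keratin of basal cells, was 27289, 28347 and 28132 in siNC and 13431, 13281 and 13401 in siANKRD10-2 (log2 fold change −1.06, SE 0.05, adjusted p = 2.18e-14 from edgeR). KRT17 was 37388, 38717 and 40860 in siNC and 21228, 20647 and 20419 in siANKRD10-2 (log2 fold change −0.91, SE 0.05, adjusted p = 1.08e-12 from edgeR). KRT6A, KRT19 and KRT8 fell by 0.81, 0.79 and 0.68. The 8 of 10 epithelial markers that fell are, apart from CDH1 and EPCAM, the same keratins, which lowers the summed marker level given above for all libraries. The 4 transcription factors on the keratin list were not called. TP63, which drives basal identity, stood at 0.00, GATA3 at −0.06, FOXA1 at −0.21 and PPARG at −0.15. KRT81 had the lowest value of the list, −3.06, but it did not qualify for the 12 largest falls. Those had to be called, without overlap between groups, and with a mean of 100 normalized counts or more, so its value is uncertain. Against siANKRD10-1, 17 of the keratin list were lower and 1 higher, and KRT5 differed by −0.66 (SE 0.05, adjusted p = 7.34e-10 from edgeR).

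**Figure D2:**
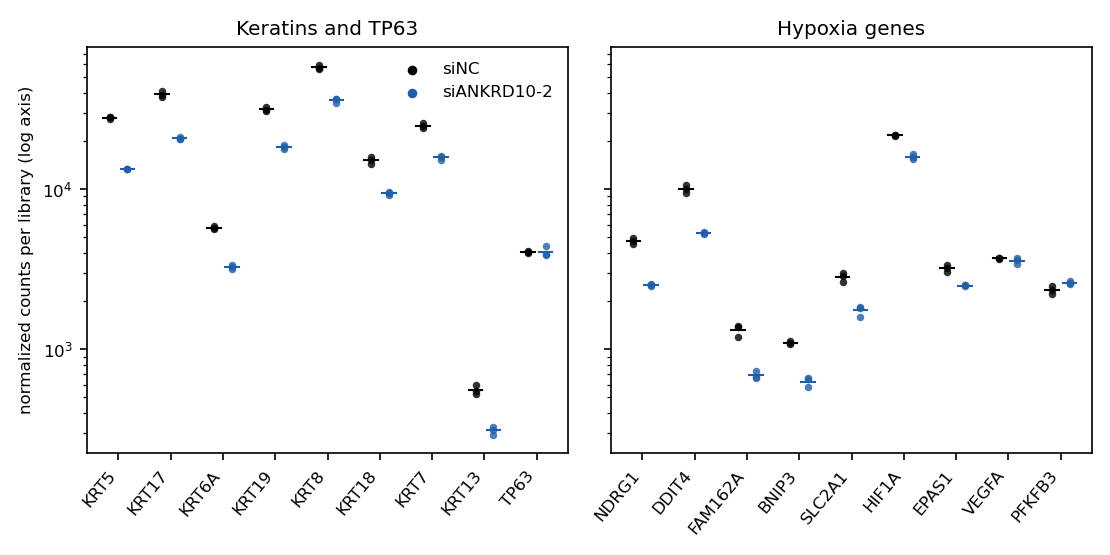
Normalized counts on a log axis for 8 keratins and TP63 (left) and for 9 hypoxia genes (right), with 1 point per library, black for siNC and blue for siANKRD10-2, and a bar at each mean of 3. Blue lies below black for every keratin shown and for NDRG1 through EPAS1, while TP63 and VEGFA overlap and PFKFB3 is higher.

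Other epithelial and adhesion genes changed in both directions. Of 44 epithelial genes 18 fell and 6 rose, which is 40.9% and 13.6%, against 18.7% and 17.6% of all genes tested. The falls included CLDN1, a tight junction protein (−0.83), and ELF3, an epithelial transcription factor (−0.85), and the rises MARVELD3, another tight junction protein (0.65). Against siANKRD10-1, where 18.8% of all genes tested were lower and 18.2% higher, 13 epithelial genes were lower and 11 higher. Of 38 mesenchymal genes 11 rose (28.9%) and 6 fell (15.8%), and against siANKRD10-1 8 were higher and 9 lower. FN1, fibronectin, was 71187, 67792 and 62998 in siNC and 108800, 107300 and 109890 in siANKRD10-2 (log2 fold change 0.69, SE 0.06, adjusted p = 2.52e-10 from edgeR), and TNC, the matrix protein tenascin C, was 8888, 9288 and 8482 in siNC and 15269, 14731 and 15788 in siANKRD10-2 (log2 fold change 0.78, SE 0.05, adjusted p = 1.64e-11 from edgeR). In the direct fit, FN1 was 92537, 99332 and 84672 after siANKRD10-1 and 107750, 106450 and 108770 after siANKRD10-2. TNC was 8231, 8956 and 7723 after siANKRD10-1 and 15122, 14615 and 15627 after siANKRD10-2. Against siNC, CDH2, N-cadherin, rose by 0.45, while SNAI2, a repressor of E-cadherin, fell (−0.43). Integrin and laminin genes had 8 falls (38.1%) and 5 rises (23.8%) in 21, and 6 were lower and 5 higher than after siANKRD10-1. ITGA3 and LAMA3 were both at −0.75, and both are chains of the anchorage of epithelium to its basement membrane. Matrix proteases and plasminogen activation had 11 rises and 6 falls in 24, the largest share of rises of any list with over 20 tested genes (45.8% against 17.6%). MMP13, a collagenase, was 1000.1, 904 and 1076 in siNC and 1932, 1927 and 2005 in siANKRD10-2 (log2 fold change 0.98, SE 0.06, adjusted p = 8.27e-12 from edgeR). No difference of MMP13 from its level after siANKRD10-1 was called (log2 difference −0.07, SE 0.06, adjusted p = 0.388 from edgeR), whereas MMP1, another collagenase, rose by 0.36 here and was 1.15 above siANKRD10-1.

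RNAs of the mitochondrial chromosome did not move as 1 block. Of the 13 mRNAs, 11 fell, MT-ND3 rose by 0.29 with overlapping libraries, and MT-ND5 was not called. MT-ND4, a subunit of complex I, was 406620, 444870 and 529920 in siNC and 222520, 240050 and 259420 in siANKRD10-2 (log2 fold change −0.94, SE 0.07, adjusted p = 2.27e-10 from edgeR), and MT-CO3, a subunit of complex IV, was at −0.70. Of the 22 tRNAs, 8 rose, 7 fell and 7 were not called. All 8 that rose are on the plus strand, which holds 14 of the 22, but so are 5 of the 7 that fell. Of the 8 on the minus strand 6 were not called. MT-TR, the arginine tRNA, was 1908, 2617 and 2332 in siNC and 6597, 7164 and 7369 in siANKRD10-2 (log2 fold change 1.62, SE 0.08, adjusted p = 1.77e-14 from edgeR), and MT-TG, the glycine tRNA, was 3802, 3973 and 4099.6 in siNC and 9710.1, 9926 and 9306 in siANKRD10-2 (log2 fold change 1.29, SE 0.05, adjusted p = 1.72e-15 from edgeR). The groups were far apart in both. MT-TD, the aspartate tRNA, had a log2 fold change of −1.51. MT-RNR2, the large ribosomal RNA, rose by 0.85 and MT-RNR1, the small one, was not called at −0.11. These tRNAs are short and lie between longer genes of the same transcripts, so reads of a neighbour cannot be told apart from theirs. In ANKRD10-2 overexpression none of the 13 mRNAs was higher and 7 were lower. Nuclear genes of the respiratory chain had 27 falls and 7 rises in 60, with UQCRH at −0.85 and COX6A1 at −0.83. These shares were 45% and 11.7%, against 18.7% and 17.6% of all genes tested.

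**Figure D3:**
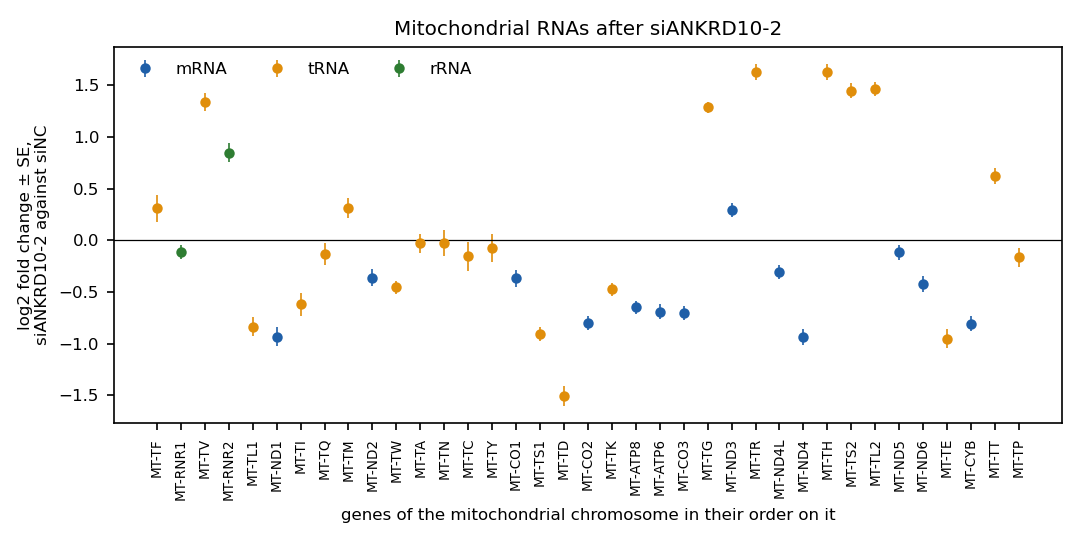
Log2 fold change of siANKRD10-2 against siNC with its standard error for the 37 genes of the mitochondrial chromosome, in their order along it, with mRNAs in blue, tRNAs in orange and rRNAs in green. Most mRNAs lie below 0, while the tRNAs range from MT-TD at −1.51 to MT-TH at 1.63.

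The genes with the largest falls belonged to no single list. MMGT1, a membrane protein of the endoplasmic reticulum complex that inserts membrane proteins, was 548, 516 and 495 in siNC and 158, 119 and 179 in siANKRD10-2 (log2 fold change −1.76, SE 0.12, adjusted p = 7.77e-12 from edgeR). SLC31A1, the high-affinity copper importer, was 1047, 1017 and 1013 in siNC and 306, 351 and 363 in siANKRD10-2 (log2 fold change −1.59, SE 0.08, adjusted p = 3.72e-14 from edgeR). Neither overlapped between groups, and both were also below siANKRD10-1, with log2 differences of −1.78 and −1.59. H19, a long noncoding RNA of the imprinted IGF2 locus at chr11:1995163-2001470, was the most abundant of them at 19490, 20730 and 20629 in siNC and 6250.2, 6643 and 5800.2 in siANKRD10-2 (log2 fold change −1.70, SE 0.06, adjusted p = 5.92e-17 from edgeR). The neighbouring INS-IGF2 row was at −1.50, but it shares exon bases with IGF2. CCND1, cyclin D1, which opens the G1 phase of the cell cycle, was 4088, 4186 and 4416 in siNC and 1481, 1542 and 1523 in siANKRD10-2 (log2 fold change −1.48, SE 0.06, adjusted p = 3.34e-16 from edgeR). It had also fallen after siANKRD10-1 (−1.18 against siNC), and the direct difference between the knockdowns was −0.30 (SE 0.06, adjusted p = 0.000416 from edgeR). Secreted or signalling proteins among the 12 largest falls were FGFBP1, a carrier of fibroblast growth factors (−1.75), PI3, the elastase inhibitor elafin (−1.70), and VSNL1, a neuronal calcium sensor (−1.43). ZFP36L2, which promotes decay of AU-rich mRNAs, was at −1.56, and STS, steroid sulfatase, at −1.50. After siANKRD10-1 against siNC, PI3, VSNL1, FGFBP1 and H19 were also called lower, at −0.88, −0.64, −0.59 and −0.53. STS, INS-IGF2 and ZFP36L2 were called lower there too, at −0.36, −0.34 and −0.31, whereas MMGT1 and SLC31A1 were not called. In the direct test all of these genes were lower after siANKRD10-2 than after siANKRD10-1. At high levels, VDAC1, the main channel of the outer mitochondrial membrane, fell from a mean of 3400 to 1395 (−1.29), SAMD9, an antiviral factor, from 3641 to 1360 (−1.42), and CTSD, the lysosomal protease cathepsin D, from 3638 to 1541 (−1.24). After siANKRD10-1 against siNC, SAMD9 was also lower (−0.40), VDAC1 was higher (0.23) and CTSD was not called. The CTSD row shares 52.7% of its exon bases with other annotated genes, so its value is uncertain.

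The largest rises were led by genes of lower level. UBD, a ubiquitin-like modifier induced by inflammatory cytokines, was 175, 184 and 195 in siNC and 800.3, 766 and 745 in siANKRD10-2 (log2 fold change 2.06, SE 0.09, adjusted p = 3.05e-15 from edgeR). However, 66.4% of its exon bases overlap other annotated genes, with GABBR1 on the same strand. The treatment of reads in overlapping genes was not given, so its value is uncertain. CCR10, a chemokine receptor, rose by 1.94 and its opposite-strand neighbour CNTNAP1 by 1.52, and their shared exon bases mean that the rows cannot be taken as separate. MUC6, a secreted mucin, was 114, 116 and 143 in siNC and 392, 377 and 600.4 in siANKRD10-2 (log2 fold change 1.88, SE 0.15, adjusted p = 2.52e-10 from edgeR). MEX3B, an RNA-binding ubiquitin ligase, and ROS1, a receptor tyrosine kinase, rose by 1.70 and 1.58, with no difference of ROS1 called between the knockdowns (log2 difference −0.13, SE 0.08, adjusted p = 0.18 from edgeR). At high levels, HEPHL1, a copper-containing ferroxidase, was 4593, 4538 and 4422 in siNC and 10438, 10743 and 11086 in siANKRD10-2 (log2 fold change 1.25, SE 0.05, adjusted p = 1.72e-15 from edgeR), and TPM4, a tropomyosin of the actin cytoskeleton, was 12283, 12339 and 12668 in siNC and 28119, 26169 and 25559 in siANKRD10-2 (log2 fold change 1.10, SE 0.05, adjusted p = 2.76e-14 from edgeR). All siANKRD10-2 libraries of these genes were above all siNC libraries. After siANKRD10-1 against siNC, MEX3B, TPM4 and HEPHL1 were also higher, by 0.88, 0.66 and 0.29, and in the direct test they stood 0.82, 0.44 and 0.96 above siANKRD10-1. UBD and MUC6 were not called after siANKRD10-1, and CCR10 and CNTNAP1 were lower, at −1.24 and −1.13.

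Growth and signalling lists were mixed, and their counts are to be read against the 18.7% lower and 17.6% higher of all genes tested. Mitosis genes had 25 falls and 8 rises in 50, with CDC25B, a phosphatase that starts mitosis, at −0.41, BIRC5, survivin, at −0.38, and PLK1, a mitotic kinase, at 0.33. DNA replication genes had 12 falls and 12 rises in 46 (26.1% each). Proteasome subunits had 18 falls and 4 rises in 32, led by PSMA2 (−0.75). Cholesterol synthesis had 13 falls and no rise in 25, led by SQLE, squalene epoxidase (−0.54), and NSDHL, a sterol dehydrogenase (−0.59). Interferon-stimulated genes had 23 falls and 7 rises in 50, and with ANKRD10-2 overexpression 49 of the same 50 were lower, so falls outnumbered rises under both manipulations. IFI44, an interferon-induced protein, went opposite ways, rising from a mean of 95.1 to 205 in the knockdown (1.10) and standing at −3.54 with overexpression. Heat shock genes had 11 falls and 3 rises in 22, with the cochaperone CHORDC1 at −0.93, and with overexpression 20 were higher and none lower. NF-kappaB targets and cytokines had 16 falls and 10 rises in 40, with C3, a complement protein, at −0.80, IL1B at −0.76 and PTGS2, an enzyme of prostaglandin synthesis, at 0.49. Against siANKRD10-1, where 18.8% of genes tested were lower and 18.2% higher, mitosis genes had 13 lower and 11 higher (median −0.01). Interferon-stimulated genes had 12 and 8 there, NF-kappaB targets 13 and 8, and DNA replication genes 13 and 11. Heat shock genes had 14 and 3, proteasome subunits 19 and 4, and cholesterol synthesis 17 and 3.

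Splicing regulators had the highest median of the lists with over 20 tested genes, 0.07, with 21 rises and 8 falls in 59 (17.6% and 18.7% over all genes tested). SRSF9, SRSF11, LUC7L3 and U2AF1, all factors of splice site choice, rose by 0.39, 0.38, 0.38 and 0.40. SRSF9 shares 46.2% of its exon bases with GATC on the opposite strand. LUC7L3 was 33594, 34605 and 34715 in siNC and 44948, 44603 and 43944 in siANKRD10-2, with no overlap. CLK1, a kinase of SR proteins, fell (−0.40). The direct test put 30 of the 59 above siANKRD10-1 and 5 below, where 18.2% of all genes tested were higher and 18.8% lower. Among 68 transcription coactivators 18 fell and 13 rose, with the acetyltransferase EP300 at −0.54 and SMARCC1, a subunit of SWI/SNF complexes, at 0.41. Genes of the microRNA and siRNA machinery, which an siRNA itself uses, had 4 falls (26.7%) and 3 rises (20%) in 15. These compare with 18.7% and 17.6% over all genes tested. AGO2, the nuclease of that machinery, was at −0.35. The difference of AGO2 between the knockdowns was not called (log2 difference 0.07, SE 0.07, adjusted p = 0.419 from edgeR).

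Genes called here were set beside ANKRD10-2 overexpression against Vector, which has its own control libraries and was counted in another table. Of 18283 genes tested in both, 11.6% were higher and 9.96% lower with overexpression. Among 3510 genes that fell after siANKRD10-2, 739 were higher with overexpression (21.1% of the falls and 34.9% of the 2119 genes higher there) and 331 were lower (9.43%). Among 3278 that rose, 582 were lower with overexpression (17.8% of the rises and 32% of the 1821 genes lower there) and 363 were higher (11.1%). Opposite calls were thus more frequent than calls in the same direction, while 69.5% of the falls and 71.2% of the rises had no call with overexpression. The counts there depend on scaling, since scaling by total counts only changed the 2151 higher and 1866 lower genes of the overexpression to 1206 and 3149.

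Of 43 tested genes within 5 Mb of ANKRD10, 11 rose and 7 fell, with a median of 0.04. The rises were a larger share than the 17.6% over all genes tested, and the falls a slightly smaller share than the 18.7%. The difference in shares was not tested. The share called rose with expression level, from 7.44% higher and 4.57% lower in the lowest of 4 classes of equal size to 29.3% and 29.5% in the highest. Among protein coding genes the direction went with exon length. In the shortest of 4 classes 15.2% rose and 23.7% fell, and in the longest 23.9% rose and 18.6% fell. Ribosomal proteins, respiratory chain subunits and mitochondrial RNAs are short genes, and the part of length in their falls was not tested.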

How the data were processed

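Human 5637 cells were transfected with siNC or siANKRD10-2 (3 libraries each) and poly(A) RNA was sequenced. The submitters' processing notes name Trimmomatic 0.36, Subread 1.5.1, featureCounts and GRCh38, whereas the study's methods name Cutadapt, HISAT2 and StringTie, and which of them made the deposited counts was not settled. The strand setting and the treatment of overlapping genes were not given in the sources used here. The values deposited by the authors are raw counts per gene, and a row sums all transcripts of its gene.

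From these counts, genes that passed filterByExpr (minimum count 10, minimum total 15) were fitted with edgeR 4.0.16 in R 4.3.3, on the 6 libraries, with TMM scaling, the quasi-likelihood test and Benjamini-Hochberg adjustment over all 18924 genes tested. The call threshold was an adjusted p under 0.05, and fold changes carry a prior count of 0.125. Total counts of 28511029 to 32784584 per library limit precision for genes of low count. siANKRD10-2 against siANKRD10-1 and siANKRD10-1 against siNC were each fitted in the same way and share libraries with the main comparison. ANKRD10-2 overexpression against Vector was fitted in its own table and shares none. Simulated counts for the real genes with known changes were used to check the procedure. Of 100 genes changed by 0.5 on the log2 scale 81% were recovered, and of 100 changed by 1 98%. There were 10 false calls (5.29% of the calls) in 18722 genes tested. Every gene was drawn with 1 common spread and all other genes were left unchanged, whereas 36.3% of genes were called in the data. These rates are therefore those of the simulation and not error rates of the data.

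Members and gene lists were chosen with earlier results of these data known. Named genes were ANKRD10, RBPMS, MYC, MAX and the panel, the 12 largest rises and falls of called genes whose groups did not overlap and whose normalized counts averaged 100 or more, the 6 largest each way where they averaged 2000 or more, and the 4 called members of smallest adjusted p in each direction of each list. Members of the MYC network, hypoxia, glycolysis, keratin, ribosomal and mitochondrial groups named outside that rule (such as EGLN3, VEGFA, GAPDH, TP63, KRT81, RPSA and MT-RNR2) were chosen after their values were seen. Symbols were placed with GENCODE 29, where 36117 of 56303 rows matched (64.1%). Alternatives were RLE size factors, library totals only, no filter, DESeq2 1.42.0, limma 3.58.1 with voom, all 9 libraries of the table, a replicate block, each library left out in turn, and, chosen after seeing the data, mitochondrial rows and overlapping rows left out.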

Additional observations from a re-analysis of the deposited data

How the results depend on the processing

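Under the alternatives, no gene of the 247 named apart from ANKRD10 changed direction while called, 233 of them kept the same call throughout, and 79.4% to 99.6% of all calls were kept, with 0 in the opposite direction. The counts of higher and lower genes (3332 and 3542) were 3347 and 3511 with RLE size factors, 3616 and 3073 with library totals only (54.06% of the calls higher), 3331 and 3360 without the filter, 2990 and 3191 with DESeq2, 3324 and 3506 with voom, 3223 and 3499 in all 9 libraries, 3301 and 3582 without mitochondrial rows, and 3059 and 3255 without rows overlapping other genes. Without any single library the counts were 2693 to 3108 higher and 2950 to 3289 lower. Asking for a log2 fold change of at least 1 left 293 and 207. With a replicate block the counts were 3377 and 3559. The labels give the groups the same replicate numbers, but same-numbered libraries did not deviate together (correlations 0.01, −0.02 and 0.01 over 14578 genes), so the numbers were not read as pairs. The uncalled RBPMS value ranged from −0.0401 (without siNC replicate 3) to 0.162 (without siNC replicate 1) and was −0.0282 without siNC replicate 2, and ANKRD10 against siANKRD10-1 was 0.0231 with library totals only. The causes were not tested. PRMT3 lost its call without siANKRD10-2 replicate 1. Isoforms of ANKRD10 cannot be told apart in counts per gene.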

Other observations

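Stress and signalling lists also moved in both directions. NRF2 antioxidant genes had 12 falls and 3 rises in 26, AP-1 and immediate early genes 11 falls and 4 rises in 23, and MAP kinase feedback genes 7 falls and 3 rises in 17, against 18.7% lower and 17.6% higher over all genes tested. Against siANKRD10-1, NRF2 genes had 10 lower and 5 higher, AP-1 genes 7 and 6 (median 0.10), and MAP kinase feedback genes 2 and 2. Of all genes tested there, 18.8% were lower and 18.2% higher. The TGF-beta and BMP pathway had 12 falls and 8 rises in 36, and against siANKRD10-1 7 were lower and 6 higher. FST, the activin antagonist follistatin, was 1502, 1636 and 1787 normalized counts in siNC and 607, 695 and 764 in siANKRD10-2, with a log2 fold change of −1.25, while INHBA, the activin subunit gene, rose by 0.54 and TGFB1 fell by 0.58. In the direct fit, FST was 903, 953 and 978 after siANKRD10-1 and 601, 689 and 757 after siANKRD10-2. INHBA overlapped there, at 6739, 7636 and 6515 against 7060, 6984 and 7072. TGFB1 did not, at 1666, 1698 and 1767 against 1030, 1132 and 1137. p53 targets had 10 falls and 6 rises in 29, the rises including BBC3, a BH3-only inducer of apoptosis, at 0.83, and XPC, a DNA damage sensor, at 0.66. ER stress genes were even, with 5 falls and 5 rises in 27, and ATF4 and amino acid stress genes had 8 falls and 6 rises in 31. Replication-dependent histones had 2 falls in 9 and lysosome genes 8 falls and 5 rises in 33.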
